A study of Mus musculus with 6 samples.

Results

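The genes described here sense bacterial lipopolysaccharide (LPS) at the cell surface and pass the signal into the cell. There were 10 of them, chosen by name from 22907 genes matched to a probe on the arrays, and each was represented by the probe with the highest mean signal over all arrays. They comprised the LPS receptor complex and its carriers (Tlr4, Ly96, Cd14, Lbp), a sister receptor (Tlr2), intracellular adaptors (Myd88, Ticam1, Ticam2) and inhibitors of the signal (Irak3, Tollip). Of the 10, 9 were measured well enough to test among 16366 genes. All mice were male C57BL6 animals aged 10 weeks that were starved for 16 h and then given LPS i.p. at 20 mg·kg−1, an experimental model of endotoxaemia. At 3 and 24 h after LPS, 3 mice received saline and 3 received recombinant human thrombomodulin (rhTM), a soluble anticoagulant protein, and whole lungs were taken at 30 h. The control injection is saline in the sample labels and PBS in the general animal methods. Lung RNA of each mouse went onto 1 single-colour Agilent array. No array came from a mouse without LPS, so the values compare treatments after LPS and say nothing of what LPS itself did to these genes.

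LPS is released from the outer membrane of Gram-negative bacteria. LPS-binding protein, the product of Lbp, carries it in plasma to CD14, which hands it to the pair formed by Toll-like receptor 4 and its partner MD-2, encoded by Ly96. The receptor then signals through MyD88 towards NF-κB and cytokine genes, and through TRIF, encoded by Ticam1 and bridged by the product of Ticam2, towards interferon genes. In the lung the receptor is found on macrophages, recruited neutrophils and endothelial cells, and LPS induces several genes of its own recognition machinery, Cd14, Tlr2 and Irak3 among them.

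The signal of each probe is given as a multiple of the 75th percentile of its array, and differences between groups as log2 values. The array labelled saline replicate 1 and the array labelled rhTM replicate 2 had their values exchanged between the scanner output and the processed table that the authors deposited with it. Neither labels nor methods tell which is right. The scanner output is followed here, with the values of the table beside it. The arrays lay on 2 slides. Saline replicate 1 and rhTM replicate 3 shared slide 2 in the scanner output, whereas in the table its arrays were rhTM replicates 2 and 3. RNA spike-ins of the array labelled saline replicate 1 had a slope of 0.826 and those of the others 1.07 to 1.09, and rhTM replicate 1 correlated with the rest at an r of 0.979 to 0.988 across genes, against 0.985 to 0.995 among the other five. Between 36243 and 40647 of 56605 probes were well above background on each array.

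None of the 9 tested genes passed the test of rhTM against saline. By limma with Benjamini-Hochberg adjustment over all genes, 0 of 9 passed at 0.05, against 0% of all 16366 genes, and the lowest adjusted p among all genes was 0.9999. Before adjustment 306 genes had a p under 0.05, none of them among the 9, and by the methods' t-test 0 genes passed after adjustment and 340 before it. Both counts of that test were taken at 0.05, without a fold-change cut. The methods give it for comparing groups in general. Their rule for array genes had a fold-change cut and a stricter P and names no adjustment, and that rule was not applied here. The groups overlapped for all 9 genes, whereas they did not overlap for 5.52% of all genes. Values were higher with rhTM for 4 of the 9 genes and lower for 5, with a median log2 difference of −0.02, beside 0.0026 over all genes. With 3 arrays against 3 an exact permutation test cannot give a p below 0.1.

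**Figure D1:**
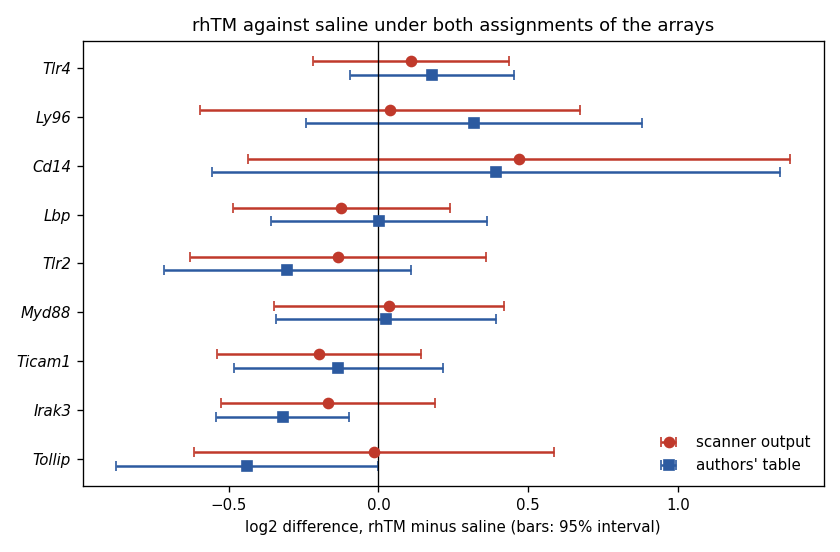
Log2 difference between rhTM and saline lungs (horizontal axis) for the 9 tested genes (vertical axis), with 95% intervals from limma on 3 arrays per group, by the scanner output (circles) and by the authors' table (squares). All 9 intervals of the scanner output span 0, and those of Irak3 and Tollip from the table lie below it.

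Tlr4, the receptor itself, varied least of the 9 genes over the 6 arrays, with a range of 0.40 on the log2 scale by its brightest probe. Its signal was 1.34, 1.14 and 1.20 times the 75th percentile in the saline lungs and 1.22, 1.25 and 1.51 in the rhTM lungs of replicates 1 to 3. The groups overlapped, and the highest array of each group was the one on slide 2. The means were 1.23 ± 0.101 with saline and 1.33 ± 0.160 with rhTM (SD, n = 3 each), a log2 difference of 0.11 (SE 0.14, 95% interval −0.22 to 0.44, exact two-sided permutation p = 0.5). A change of 1.35-fold upwards or to 0.860-fold downwards bounds that interval. The difference was 0.08 between the 4 arrays of slide 1 and 0.17 between the pair on slide 2. A dimmer second Tlr4 probe, also well above background on all arrays, followed the first less closely (r = 0.63, n = 6). Its log2 signal ran from −4.50 to −3.65, the log2 difference with rhTM was 0.03 (0.56 in the authors' table), and that between slides was 0.53.

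Ly96, whose product MD-2 holds the lipid part of LPS within the receptor, gave 16.3, 11.3 and 11.3 in the saline lungs and 9.96, 12.2 and 18.6 in the rhTM lungs. The values split by slide rather than by treatment: saline replicate 1 and rhTM replicate 3, the arrays of slide 2, were above all others. The log2 difference with rhTM was 0.04 (SE 0.27, 95% interval −0.59 to 0.67, exact permutation p = 0.8), and within the slides it was −0.04 and 0.19. A second, dimmer Ly96 probe, designed on another transcript accession, lay between 0.255 and 0.307 times the 75th percentile on all arrays and gave a slide difference of only 0.07.

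Cd14, the surface protein that loads LPS onto the receptor, had the widest range of the 9, 1.55 on the log2 scale, and 1 lung accounted for it. The saline lungs gave 16.9, 17.8 and 24.2, and the rhTM lungs 49.6, 18.3 and 21.4. rhTM replicate 1 stood clear above the next array, and the other rhTM lungs lay within the saline range. The means were 19.7 ± 3.99 with saline and 29.8 ± 17.2 with rhTM (SD, n = 3 each), a log2 difference of 0.47 (SE 0.38, 95% interval −0.43 to 1.37, exact permutation p = 0.5). Without rhTM replicate 1 the log2 difference was 0.03 (SE 0.20). A second Cd14 probe followed the first over the arrays (r = 0.989, n = 6) and read 38.6 on that array, against 12.6 to 20.2 on the others.

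Lbp, better known as a liver product but also made by lung epithelium, gave 4.70, 5.68 and 4.12 with saline and 4.69, 4.13 and 4.39 with rhTM. All rhTM values lay inside the saline range. The log2 difference was −0.12 (SE 0.15, 95% interval −0.48 to 0.24, exact permutation p = 0.6), with −0.14 and −0.10 within slides 1 and 2. Of 6 hepatocyte markers, Alb, Apoa1, Ttr and Fgb did not pass the filter. Serpina1a and Apoa2 did. Apoa2 read 8.37, 4.36 and 3.75 with saline and 3.02, 4.01 and 8.41 with rhTM, highest on the arrays of slide 2. Serpina1a was dim, at log2 levels of −5.04, −4.67 and −4.25 with saline and −4.67, −5.06 and −4.69 with rhTM, and did not rank by slide (slide difference −0.20, adjusted p = 0.719). Their part in the Lbp values was not tested.

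**Figure D2:**
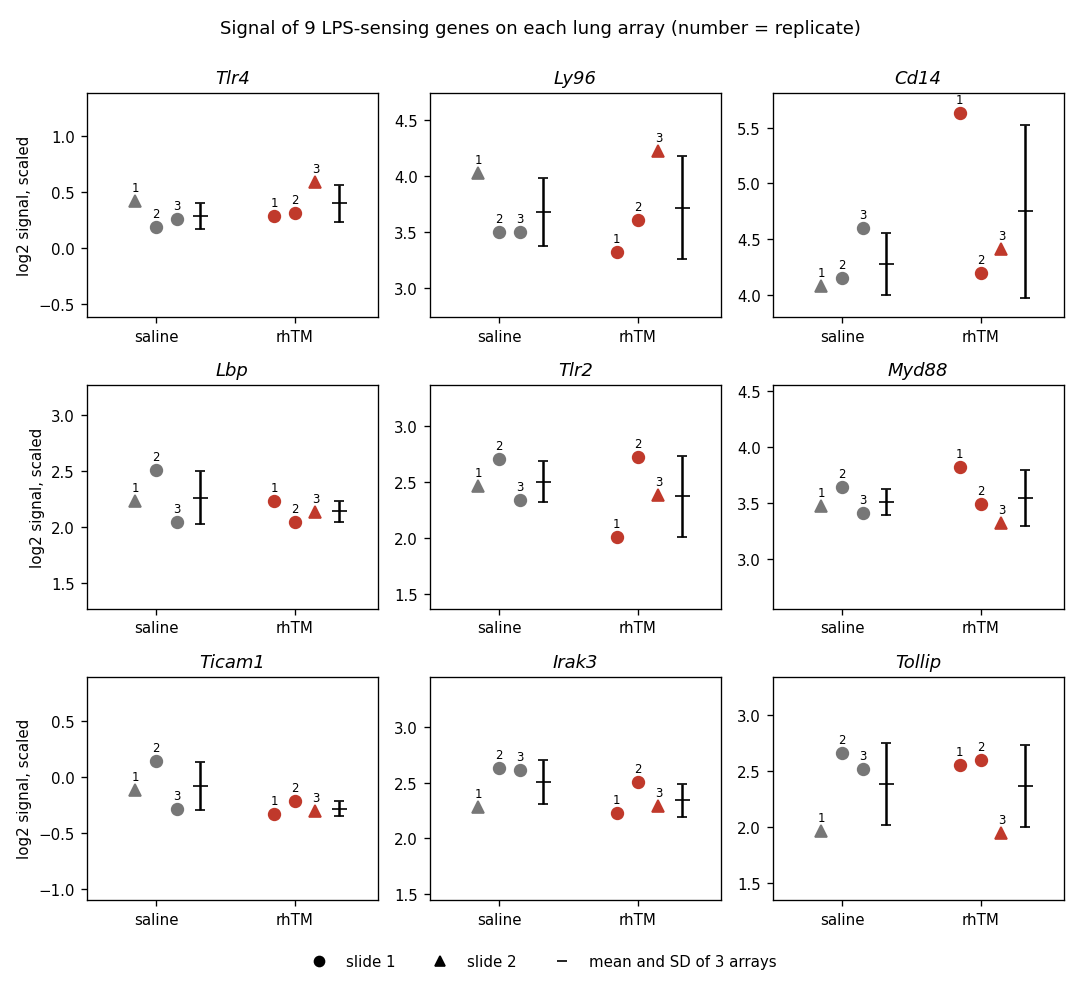
Log2 signal relative to the 75th percentile of the array (vertical axes, each panel spanning the same height) for the 9 tested genes in saline (grey) and rhTM (red) lungs, 1 point per array, with circles for slide 1, triangles for slide 2 and bars for mean and SD of 3 arrays. The groups overlap in every panel, Cd14 is high on rhTM replicate 1 alone, and both triangles lie above the circles for Tlr4 and Ly96 and below them for Tollip.

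Tlr2 recognises bacterial lipoproteins rather than LPS and is itself induced by LPS. It gave 5.53, 6.52 and 5.06 in the saline lungs and 4.01, 6.61 and 5.22 in the rhTM lungs, so that the lowest and the highest array both belonged to rhTM. The log2 difference was −0.13 (SE 0.21, 95% interval −0.63 to 0.36, exact permutation p = 0.7), and it was −0.16 and −0.08 within slides 1 and 2. The lowest value came from rhTM replicate 1, the lung in which Cd14 was highest. Without that array the log2 difference was 0.05 (SE 0.17).

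Among the adaptors, Myd88, shared by nearly all Toll-like receptors and the interleukin-1 receptor, gave 11.1, 12.5 and 10.7 with saline and 14.1, 11.3 and 10.0 with rhTM. The rhTM values spanned those of saline on both sides. The log2 difference was 0.03 (SE 0.16, 95% interval −0.35 to 0.42, exact permutation p = 0.8), with opposite signs on the slides (0.13 and −0.15). Ticam1, which encodes TRIF, gave 0.925, 1.11 and 0.822 with saline and 0.794, 0.864 and 0.809 with rhTM, a log2 difference of −0.20 (SE 0.14, 95% interval −0.54 to 0.14, exact permutation p = 0.2). It was lower within both slides, by −0.20 on slide 1 and −0.19 on slide 2, and saline replicate 3 lay among the rhTM values. Ticam2, whose product TRAM bridges TRIF to Toll-like receptor 4, had 1 probe, and none of the 6 arrays read it well above background. Its log2 signal of −7.48 to −6.87 lay up to 2.05 below the dimmest probe that counted as measured on the same array, so no difference between groups could be given.

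Among the inhibitors, Irak3 encodes IRAK-M, a pseudokinase of macrophages that holds back MyD88 signalling after a first exposure to LPS. It gave 4.86, 6.20 and 6.11 with saline and 4.67, 5.68 and 4.88 with rhTM, a log2 difference of −0.17 (SE 0.15, 95% interval −0.53 to 0.19, exact permutation p = 0.3). The rhTM arrays tended to the lower end, but saline replicate 1 lay among them, and the differences within slides were −0.26 and 0.0045. Of the 3 probes of Irak3, the second followed the brightest in part (r = 0.74) and the third did not (r = −0.32). The second gave a log2 difference of −0.11, whereas the third gave 0.20. On rhTM replicate 1, where the brightest probe was at its lowest, the third read 1.05, against 0.545 to 0.639 on the other arrays.

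Tollip encodes an adaptor that binds IRAK1 and restrains signalling from Toll-like receptors 2 and 4. The saline lungs gave 3.90, 6.30 and 5.73, and the rhTM lungs 5.87, 6.05 and 3.84. As with Ly96 the arrays split by slide, here with both slide 2 arrays lowest. The log2 difference with rhTM was −0.02 (SE 0.25, 95% interval −0.62 to 0.59, exact permutation p = 0.9), with −0.01 and −0.02 within the slides.

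With the array assignment of the authors' table, 0 of 9 genes passed the adjustment, as did 0% of 16316 genes, although 2279 genes, Irak3 and Tollip among them, had an unadjusted p under 0.05. The groups then did not overlap for 1 of 9 genes, Irak3, and for 21.7% of all genes. Irak3 then read 5.68, 6.20 and 6.11 with saline and 4.67, 4.86 and 4.88 with rhTM, a log2 difference of −0.32 (SE 0.09, exact permutation p = 0.1, adjusted p = 0.314). For Tollip the table gave −0.44 (SE 0.18, adjusted p = 0.356), for Ly96 0.32 (SE 0.23, adjusted p = 0.545) and for Tlr2 −0.30 (SE 0.17, adjusted p = 0.450). Tlr4 stood at 0.18, Cd14 at 0.39, Myd88 at 0.02, Ticam1 at −0.13 and Lbp at 0.00098. When rhTM replicate 1 was left out of the table, 562 genes (3.44%) passed, among them Ly96 (log2 difference 0.59, SE 0.10, adjusted p = 0.0450) and Tollip (−0.64, SE 0.09, adjusted p = 0.0246). In that comparison both rhTM arrays came from slide 2 and all saline arrays from slide 1, and treatment and slide cannot be told apart.

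The slides were then compared directly, a comparison added after the data were seen. With the treatment group in the model, 227 genes were higher and 6 lower on slide 2, together 1.42% of 16366 genes, and 0 of the 9 LPS-sensing genes passed, with Ly96 and Tollip at an unadjusted p under 0.05. The 2 arrays of slide 2 did not overlap with the 4 of slide 1 for 3 of the 9 genes, beside 32.7% of all genes. Those were Ly96, 1.56-fold higher on slide 2 (log2 difference 0.64, SE 0.13, adjusted p = 0.117), Tlr4 (0.24, SE 0.10, adjusted p = 0.298) and Tollip, at 0.647-fold on slide 2 (−0.63, SE 0.10, adjusted p = 0.0662). Each had an exact permutation p of 0.0667, the smallest that 2 arrays against 4 allow. Without the group term, which makes the comparison independent of how the exchanged arrays are assigned, 1 of the 9 genes, Tollip, passed (adjusted p = 0.0248), beside 2.16% of all genes, and Ly96 did not (adjusted p = 0.0577). Of the marker genes, Elane, Cd4 and Apoa2 passed between slides with the group term (log2 differences of 3.72, 2.61 and 1.16, adjusted p = 0.00282, 0.00579 and 0.0441), and were named after their values were seen. Of the other six genes, differences between slides ranged from −0.40 for Cd14 to −0.02 for Tlr2, and that of Cd14 was −0.08 without rhTM replicate 1 and −0.69 without rhTM replicate 2. Without saline replicate 1 or without rhTM replicate 3, 0 genes of the whole array passed in this comparison (1230 and 943 at an unadjusted p under 0.05).

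**Figure D3:**
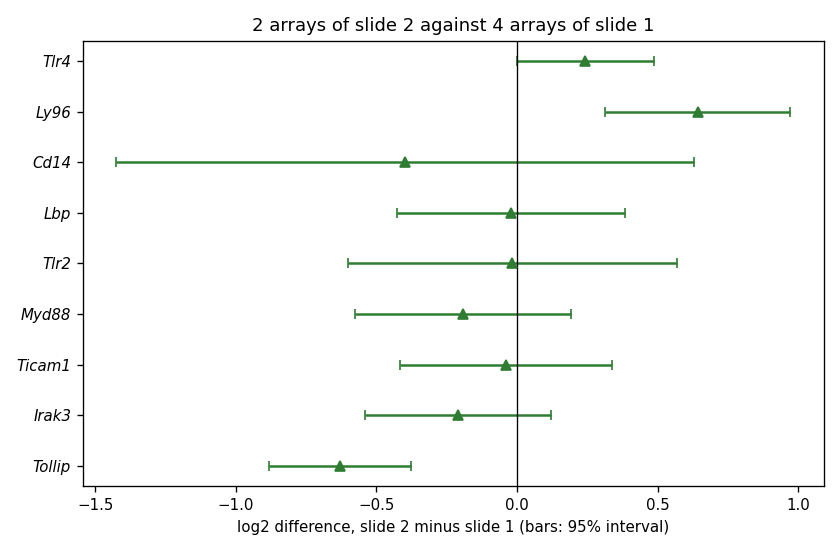
Log2 difference between the 2 arrays of slide 2 and the 4 arrays of slide 1 (horizontal axis) for the 9 tested genes (vertical axis), with 95% intervals from limma with the treatment group in the model. The interval of Ly96 lies above 0 and that of Tollip below it, whereas that of Tlr4 reaches −0.0016.

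The lung of rhTM replicate 1 was then set against the other arrays. Its Cd14 value was 1.34 on the log2 scale above the mean of the other five arrays, a deviation larger than that of 97.9% of genes on this array, whereas Tlr4 deviated by −0.07 and Lbp by 0.04. Myd88 was also highest there, and Ly96, Tlr2, Ticam1 and Irak3 were lowest. Of 20 genes that LPS induces through MyD88, 8 had their highest value on that array and 5 their lowest, and of 13 induced through TRIF 6 and 4, beside 29.8% and 26.6% of all genes. Tnf was among the lowest. Cxcl3, a neutrophil chemoattractant, read 1.72 times the 75th percentile there and 0.194 to 0.745 elsewhere. Il6 read 4.48 on this array against 0.917 to 2.25 on the others, Cxcl2 2.29 against 0.609 to 0.953, and Csf3, the granulocyte growth factor, 1.26 against 0.324 to 0.721. Il6, Cxcl2 and Csf3 were singled out after their values were seen, and their values on this 1 array are a description, with no test.

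**Figure D4:**
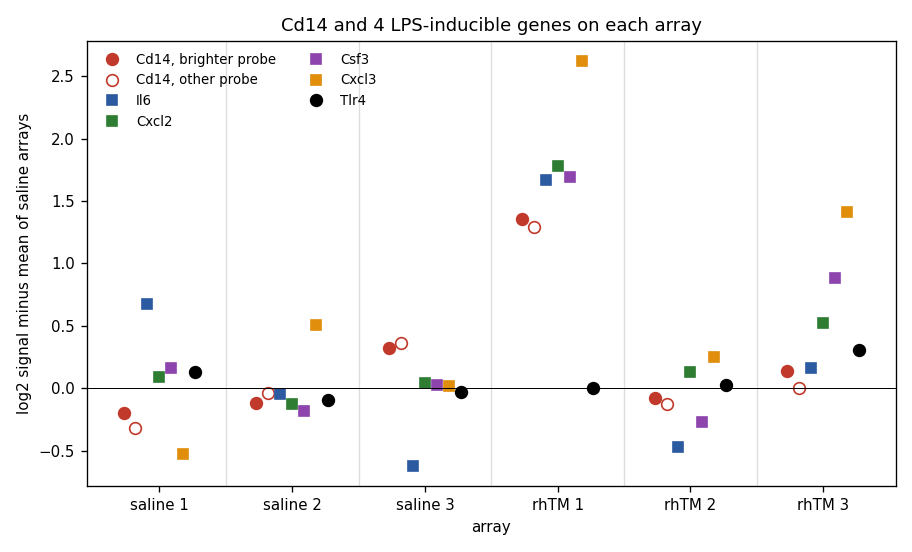
Log2 signal minus the mean of the 3 saline arrays (vertical axis) on each of the 6 arrays (horizontal axis) for both Cd14 probes, 4 LPS-inducible genes and Tlr4, 1 point per array. Every Cd14, Il6, Cxcl2, Csf3 and Cxcl3 value is highest on rhTM replicate 1, and Tlr4 is highest on rhTM replicate 3.

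Mean log2 levels of marker lists on rhTM replicate 1 were 4.57 for 11 of 12 neutrophil genes (4.12 to 4.52 on the other arrays). Elane, a granule protease gene of immature neutrophils, was at a log2 level of 4.39 and 4.29 on the slide 2 arrays and 0.47 to 0.79 on the rest, and without it the neutrophil mean was 4.95 on rhTM replicate 1 and 4.48 to 4.55 on the others. Means were 2.79 for 9 monocyte genes (2.94 to 3.19) and 2.33 for 11 alveolar macrophage genes (2.31 to 2.62). Of the 9 monocyte genes, 4 were lowest on rhTM replicate 1 and 1 was highest. The monocyte mean leaned on Cx3cr1, at −2.73 there and −1.40 to 0.015 on the others. On the same array means were 3.63 for 10 endothelial genes (3.81 to 4.03) and 3.43 for 3 erythroid genes (2.51 to 2.81). The endothelial genes went both ways, with 6 lowest and 3 highest on rhTM replicate 1. Of the 3 erythroid genes 2 were highest there, Alas2 at 3.10 against 1.33 to 2.18 on the others. Ly6g had no matched probe. Whether these differences between means had a part in the Cd14 or Tlr2 values was not tested. In whole lung, fewer cells of a type and less RNA per cell cannot be told apart. By limma across the groups, 0 genes of these lists passed, with 1 of the monocyte list, Fn1, at an unadjusted p under 0.05 (log2 difference 0.36), and the neutrophil list without Elane ranged from 4.51 to 4.55 with saline and from 4.48 to 4.95 with rhTM. Surfactant and other type 2 cell genes, which mark the tissue as lung, were measured for 8 of 8, with a mean of 5.97 on rhTM replicate 1 and 6.07 to 6.42 on the other arrays. For 5 club and ciliated cell genes the mean was 3.08 on that array and 2.17 to 3.01 on the others.

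The genes most like Cd14 over the 6 arrays were Pcp4 (r = 0.997), Cyth1 (r = 0.996) and Entpd3 (r = 0.996), all with their highest value on rhTM replicate 1. Altogether 871 genes had an r of at least 0.9 with Cd14 and 290 with Tlr4. Those nearest to Tlr4 were Fli1 (r = 0.995), a transcription factor of endothelial and blood cells, Arl13b (r = 0.990) and Il5ra (r = 0.989). Fli1 read 2.90, 2.38 and 2.47 in the saline lungs and 2.62, 2.63 and 3.29 in the rhTM lungs, with the slide 2 arrays highest as for Tlr4. These values of r are descriptions over 6 arrays on 2 slides.

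Between the 9 genes themselves, 36 pairs were correlated over the 6 arrays and 0 passed after adjustment. The lowest adjusted exact permutation p was 0.2 for Pearson's r and 0.617 for Spearman's rho. Before adjustment 4 pairs had a Pearson p under 0.05. Ly96 ran opposite to Tollip (r = −0.93, exact permutation p = 0.0389, adjusted p = 0.35, rho = −0.54), but within the 4 arrays of slide 1 their r was 0.34. Tlr4 ran parallel to Ly96 (r = 0.90, exact permutation p = 0.0167, rho = 0.77) and opposite to Tollip (r = −0.90, exact permutation p = 0.0125, rho = −0.77). Without the 2 arrays farthest from the median of Tlr4, which were those of slide 2, r was 0.06 with Ly96, a relation that rested on those arrays, and −0.50 with Tollip. Cd14 ran opposite to Tlr2 (r = −0.89, exact permutation p = 0.0167, rho = −0.77). Without the 2 arrays farthest from the median of Cd14, rhTM replicate 1 among them, that r was −0.47. Within the 4 arrays of slide 1, which include rhTM replicate 1, it was −0.97.

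The wider pathway was read from 5 lists of 68 genes, of which 64 were tested. By limma 0 passed after adjustment and 1, Tab3, had an unadjusted p under 0.05. Of the 64, 31 were higher and 33 lower with rhTM, and their median log2 difference was −0.02. Of the other Toll-like receptors 8 of 10 were tested, with 2 higher and 6 lower by the scanner output but 6 higher by the table (medians −0.02 and 0.08). Tlr6, which pairs with Tlr2, had the lowest unadjusted p upwards (log2 difference 0.17, SE 0.23, with 0.05 by the table and −0.05 without rhTM replicate 1), and Tlr1, its alternative partner, downwards (−0.29, SE 0.19, with −0.18 by the table and −0.10 without that array). Tlr1 read 1.55, 1.36 and 1.37 with saline and 0.896, 1.38 and 1.27 with rhTM, lowest on rhTM replicate 1 as was Tlr2.

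Receptor partners and LPS-handling proteins had 3 of 11 tested genes higher and a median log2 difference of −0.10, and by the table also 3 and −0.12. Pltp, the phospholipid transfer protein, which also moves LPS between lipoproteins, had −0.45 (SE 0.23) but −0.12 by the table and −0.28 without rhTM replicate 1, and Cd55, a complement inhibitor, had 0.15 (SE 0.12). Itgam, the α chain of complement receptor 3 on neutrophils and macrophages, was 37.9 and 42.1 on the 2 arrays of slide 2 and 23.8 to 24.8 on the others. It was the only gene of the pathway lists that passed in the comparison of slides (log2 difference 0.72, adjusted p = 0.0419).

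Proximal adaptors and kinases were all tested, 23 genes, with 14 higher and a median of 0.02 by the scanner output but 9 higher and −0.04 by the table. Tab3, which links TRAF6 to the kinase TAK1, had the lowest unadjusted p upwards. It read 0.733, 0.698 and 0.812 with saline and 0.982, 0.877 and 0.914 with rhTM, without overlap (log2 difference 0.31, SE 0.12, exact permutation p = 0.1). The table gave 0.13 for Tab3 (adjusted p = 0.694). Irf5, a transcription factor downstream of MyD88, gave −0.25 (SE 0.15). Of 15 other inhibitors 8 were higher by either assignment, with medians of 0.0038 and 0.02. Socs1 gave 0.21 (SE 0.15), and Dok2, an adaptor that dampens Toll-like receptor 4 signalling in myeloid cells, gave −0.24 (SE 0.16). Cytosolic LPS sensing had 4 of 7 genes higher, and 6 by the table. Casp4, the mouse caspase-11 that binds LPS directly, read 14.6, 14.1 and 14.5 with saline and 19.6, 15.6 and 14.8 with rhTM (log2 difference 0.20, SE 0.14, exact permutation p = 0.1, with 0.08 without rhTM replicate 1), and Gbp2, a guanylate-binding protein, gave −0.20 (SE 0.13) but 0.02 by the table.

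Genes that LPS induces were read from 2 lists, and by limma 0 of 33 tested passed, with 1, Cxcl3, at an unadjusted p under 0.05. In the MyD88 arm 14 of 20 were higher with rhTM, with a median log2 difference of 0.09, and 11 by the table, with a median of 0.09. Cxcl3 was the gene with the lowest unadjusted p upwards (log2 difference 1.43, SE 0.58, exact permutation p = 0.2, with 0.91 by the table and 0.83 without rhTM replicate 1). Tnf, the early cytokine of the response, read 1.90, 2.16 and 1.54 with saline and 1.11, 1.83 and 1.21 with rhTM, a log2 difference of −0.45 (SE 0.23, exact permutation p = 0.2). In the TRIF arm 9 of 13 were higher, with a median of 0.04, and 8 by the table, with 0.12. Ifit1, an interferon-induced gene, gave 0.25 (SE 0.15), which was 0.15 without rhTM replicate 1. Ccl12, a monocyte chemoattractant, gave −0.32 (SE 0.26), which was −0.035 without that array.

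**Figure D5:**
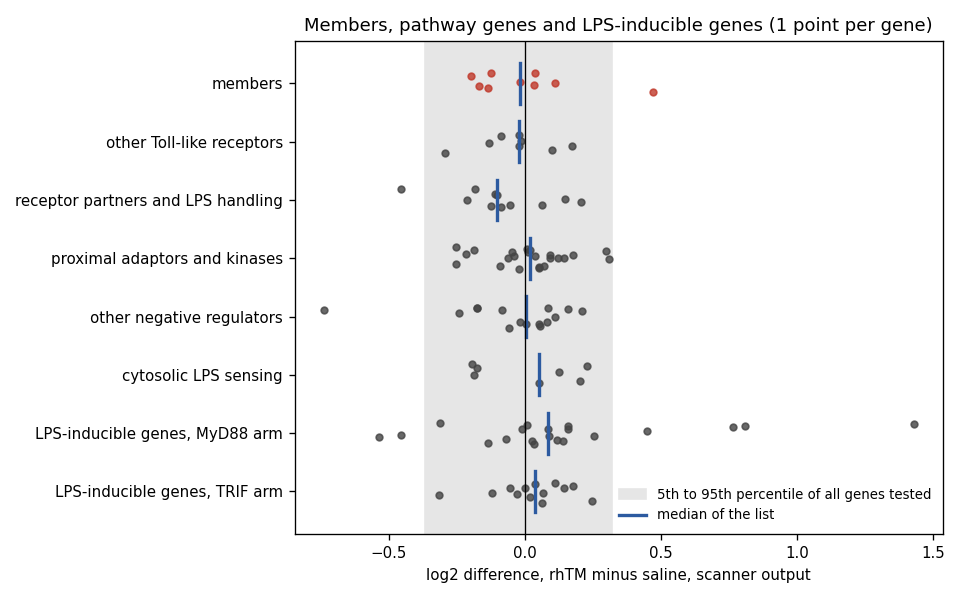
Log2 difference between rhTM and saline by the scanner output (horizontal axis) for the 9 tested LPS-sensing genes and for each gene of 7 lists (rows), with the median of each list as a vertical mark and the 5th to 95th percentile of all 16366 genes (−0.37 to 0.32) in grey. Cd14 is the only LPS-sensing gene outside the grey band, and Cxcl3 has the highest value of the 7 lists.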

How the data were processed

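Lung RNA of 6 mice was hybridised to Agilent SurePrint G3 Mouse arrays, 1 per mouse. The labels name an RNeasy kit for extraction and the methods a simplyRNA kit. The authors deposited the scanner output, whose processed signal is a linear intensity, corrected for background array by array but not scaled between arrays. A processed table that the authors deposited too holds intensity values, and in it more than 99.9% of probes matched a scanner column to within 0.1%, with 2 columns exchanged. The scanner output names Feature Extraction 10.7.3.1 and the submitters' processing notes version 9.1.

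From the deposited intensities, control spots were left out, spots of a probe averaged, and 398 probes dropped because all their spots on some array were flagged as outliers. No probe of the 10 genes was saturated. The 75th percentile of each array (675 to 850 intensity units) was subtracted on the log2 scale. Probe accessions were looked up, unversioned, in a RefSeq table (GRCm38.p6), and 32989 of 56605 were found. Coordinates are left out because the array was designed on another build. Probes were kept when well above background on all 3 arrays of a group, and the brightest stood for its gene.

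The comparison of groups used limma 3.58.1 in R 4.3.3 (lmFit, eBayes) and adjusted p-values over all genes by Benjamini and Hochberg's method. Single values were also compared by exact two-sided permutation tests. P-values measure the spread between 3 lungs per group, and the number of arrays limits precision. A rule named genes outside the 10: in each pathway or LPS-inducible list the lowest unadjusted p in each direction and any gene that passed, and the 3 genes with the highest r with Tlr4 and with the member of widest range. The marker genes and Il6, Cxcl2, Csf3 and Sarm1 were named outside this rule, after their values were seen. The members and lists were chosen with earlier results of these data known. Alternatives were normexp (offset 50, on median spot signals), quantile normalization, the table, no filter, a stricter filter, blocks for slide or for replicate number, averaging the probes of a gene, omission of each array or of both exchanged arrays, and the methods' t-test. The comparison of slides and a slide block on the table were added after seeing the data, as were marker means without genes that passed between slides and the omission of arrays for the named list genes. The fits were tested on simulated data.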

Additional observations from a re-analysis of the deposited data

How the results depend on the processing

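Under normexp, quantile normalization, no filter, a stricter filter, slide as a block, averaged probes, the methods' t-test and without both exchanged arrays, 0 of the 9 genes passed. Tlr4, Ticam1 and Irak3 kept their direction under all 23 alternatives run for each, but not their size. These alternatives were not independent. No filter, a stricter filter, blocks on the scanner output and the t-test could not change these log2 differences. Their probes were the same, and the groups were balanced within blocks. Many of the others left out arrays of the same set. Tlr4 went from 0.013 without rhTM replicate 3 to 0.25, Ticam1 from −0.0035 by the table without saline replicate 2 to −0.30, and Irak3 from −0.025 with averaged probes to −0.37. The replicate numbers are not known to pair mice, and deviations of same-numbered arrays correlated at −0.30, 0.44 and −0.45. With the replicate block 0 genes passed (376 at an unadjusted p under 0.05). The log2 difference of Cd14 was 0.47 as without the block, which is fixed by the design, as each block held 1 array of each group. Small differences changed sign. Myd88 became −0.0057 by normexp and −0.011 by quantile normalization, Ly96 −0.00085 by quantile normalization, and Lbp 0.00098 by the table. With the table and the slide as a block, Ly96 was −0.22, Lbp 0.032, Cd14 1.31 (adjusted p = 0.0519), Tlr2 −0.59 and Myd88 0.30, and 432 genes passed (187 higher, 245 lower), 1 of them in the pathway lists (Sarm1) and 3 among the LPS-inducible genes (Il6, Cxcl2, Csf3), and Slc4a1 of the erythroid markers. That fit sets rhTM replicate 1 alone against the saline arrays. Sarm1 was at a log2 level of −7.32 on rhTM replicate 1, where the dimmest probe that counted as measured was at −5.15. Its difference there therefore rests on a value that was not measured. Leaving out 1 array at a time, from the scanner output or from the table, gave a log2 difference of −0.21 to 0.59 for Ly96, −0.069 to 0.75 for Cd14, −0.23 to 0.16 for Lbp, −0.43 to 0.050 for Tlr2, −0.12 to 0.15 for Myd88 and −0.64 to 0.20 for Tollip. It gave 0 to 562 genes past the threshold, 0 to 2 of the 9 genes and 0 to 2 pathway genes. The upper ends came from the table without rhTM replicate 1, where those that passed were Ly96 and Tollip, and Itgam and Tlr5 of the pathway. In the comparison of slides, 354 genes passed without the group term, 1 of them Tollip, and Tollip was also the 1 that passed by normexp (adjusted p = 0.0390). Tlr2 was 0.012 between slides by normexp. Leaving out 1 array gave 0 to 232 genes between slides, with 100 without saline replicate 2 and 50 without saline replicate 3, and differences of −0.69 to −0.076 for Cd14, −0.18 to 0.13 for Tlr2, −0.12 to 0.080 for Lbp and −0.13 to 0.053 for Ticam1. Among the other list genes whose values are given for the groups, leaving out 1 array moved Irf5 to between −0.33 and −0.14, Socs1 0.092 to 0.33, Dok2 −0.35 to −0.11, Cd55 0.079 to 0.19 and Tab3 0.26 to 0.37. The causes were not tested. A lone array left in a slide or group was assumed to vary like the others.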
